A study of Homo sapiens with 20 samples.

Results

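The 44 genes described here drive or mark the cell division cycle, and were read on arrays of WM793, an established cell line of vertical growth phase melanoma, and of its derivatives that overexpress NME1. They are cyclins and their kinases, factors that load and run the replication fork, kinases and motors of mitosis, 2 markers of cycling cells, and inhibitors of the cycle. A row of the deposited table belonged to a gene when the platform's symbols for that row included it, and the row with the highest mean stood for a gene with more than 1 row. All 44 had a row, among 18385 features in all. For 39 of them the row carried that symbol alone. The rows of CDK4, MCM7, PCNA, BUB1B and KIF20A also carried symbols of other genes (TSPAN31 beside CDK4, CDC23 beside KIF20A, PAK6 beside BUB1B, an antisense RNA beside PCNA and 3 microRNAs beside MCM7), so their values cannot be given to 1 gene with certainty.

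The 5 lines were NME1-wild-type, which carries the unaltered construct, the mutant lines NME1-E5A, NME1-K12Q and NME1-P96S, and Parent, the WM793 cells they were made from. NME1 phosphorylates nucleoside diphosphates and is a known suppressor of metastasis, and P96S is the human counterpart of the Killer of prune change known in Drosophila. By its title, the study sought an expression signature of that suppressor role. All cells were grown for 3 days before total RNA was taken, and the labels name no further treatment. Each line had 4 arrays, 20 in all, described as technical replicates. A construct was therefore represented by 1 line, and every p-value measures the spread between arrays and not between independently made lines. Levels are log2 values from RMA, the authors' array normalisation, and a difference between lines is a difference of log2 means. Levels of different rows are not comparable with each other, because each row has its own probes.

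A cell that commits to division in G1 uses D-type cyclins with CDK4 or CDK6 to release the E2F transcription factors from the retinoblastoma protein. E2F then raises cyclin E, CDK2 activity and the genes of replication, whose helicase, the MCM complex, is loaded at origins by CDC6 and CDT1. Genes of G2 and mitosis are switched on later, through FOXM1 and its partners, and their products are destroyed as the chromosomes part. In melanoma the G1 step is a known point of loss of control, through CDKN2A, CDK4 or cyclin D1.

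The row of the overexpressed gene, 3726934, is shared by NME1 and the NME1-NME2 readthrough transcript. It averaged 9.81 ± 0.0486 in NME1-wild-type, 9.78 ± 0.108 in NME1-E5A, 9.75 ± 0.216 in NME1-K12Q and 9.78 ± 0.11 in NME1-P96S, against 9.53 ± 0.173 in Parent (SD, n = 4 each). The differences from Parent lay between 0.23 and 0.28 and did not pass in limma (lowest adjusted p = 0.85). Among melanocyte lineage markers, SOX10 lay between 9.20 and 9.66 and S100B between 7.76 and 9.26 on all arrays. MITF lay between 5.51 and 5.95, the pigment gene MLANA between 3.04 and 4.31, TYRP1 between 3.71 and 4.90 and S100A1, on a row shared with S100A13, between 4.94 and 6.18. Of the leukocyte markers, PTPRC lay between 3.06 and 3.71, CD3E between 4.02 and 5.69 and CD14 between 4.93 and 6.35. ITGAM, on a row shared with ITGAX, lay between 4.3 and 5.54. Of the endothelial markers, PECAM1 lay between 4.01 and 5.07 and VWF between 4.38 and 5.58. CDH5 lay between 5.01 and 6.1 and KDR between 5.18 and 5.95. Of the epithelial markers, EPCAM lay between 3.21 and 4.21, CDH1 between 3.93 and 4.69 and KRT8 between 6.47 and 7.38. KRT5, on a row shared with KRT7, lay between 5.11 and 6.19. KRT14, on a row shared with KRT16 among others, lay between 5.38 and 6.81. Of the fibroblast markers, DCN lay between 3.99 and 5.03, LUM between 5.72 and 7.14 and COL1A1 between 6.26 and 7.39. FAP lay between 6.17 and 7.69 and PDGFRA, on a row shared with FIP1L1, between 6.32 and 7.28. The median of all features was 6.36. Arrays correlated with each other at 0.91 to 0.995 across rows. Their interquartile range, 2.74 at the median, ran between 2.19 and 3.16. It was narrowest on NME1-K12Q replicate 2 (2.46), NME1-P96S replicate 3 (2.33) and Parent replicate 2 (2.19).

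None of the 44 genes passed the test for a change in any of the 10 pairs of lines. A change was called at an adjusted p under 0.05 in limma, with Benjamini-Hochberg adjustment over all 18385 features, and a fold of at least 1.5. Against Parent, 0 of 44 were called in NME1-wild-type (0.0326% of all features), NME1-E5A (0.218%), NME1-K12Q (0.00544%) and NME1-P96S (0.103%). Of NME1-wild-type against the mutants, 0 of 44 were called beside 0.207% of features for NME1-E5A, 0.0381% for NME1-K12Q and 0.201% for NME1-P96S. Between mutants the count was also 0, beside 0.169% for NME1-E5A against NME1-K12Q, 0.239% for NME1-E5A against NME1-P96S and 0.277% for NME1-K12Q against NME1-P96S. In limma's moderated F-test over the 5 lines 0 of 44 passed, beside 0.582% of features.

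At an unadjusted p under 0.05 the F-test gave 2 of 44, CENPA and PLK1, or 4.55%, beside 3.29% of all features. The pairs gave 6 of 44 (13.6%, beside 3.39% of features) for NME1-wild-type against NME1-P96S and 4 for NME1-K12Q against NME1-P96S (3.12%). They gave 2 each for NME1-wild-type (1.38%), NME1-K12Q (1.48%) and NME1-P96S (3.14%) against Parent and for NME1-E5A against NME1-P96S (4.11%). NME1-E5A against NME1-K12Q gave 1 (2.78%). For NME1-E5A against Parent (2.98%), NME1-wild-type against NME1-E5A (2.4%) and NME1-wild-type against NME1-K12Q (1.29%) the count was 0.

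The arrays set a limit on what these counts can say. The 95% interval of a difference reached between 0.198 and 0.701 to either side, with a median of 0.361. Of the 44 intervals for NME1-wild-type against Parent, 26 lay wholly within 1.5-fold in either direction, which is 0.585 in log2. The number was 29 in NME1-E5A, 29 in NME1-K12Q and 27 in NME1-P96S against Parent, and 23 for NME1-wild-type against NME1-P96S. For the other genes a change of 1.5-fold lay inside the interval. The widest bound, 0.999, was that of CCNB2, a mitotic B-type cyclin, in NME1-wild-type against NME1-P96S. Between arrays of 1 line the SD of these genes had a median of 0.248, beside 0.262 for all features. The span between the highest and lowest line mean had a median of 0.272, beside 0.234 for all features, and ran between 0.0753 for E2F1 and 0.475 for CDKN3.

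The promoters of the 4 genes with the smallest F-test p are shown because CENPA and PLK1 act in mitosis and CDC6 and MCM2 in replication, the roles between which the values below divide. Each is the RefSeq window (GRCh38.p14) of 250 bases before to 50 bases after the transcription start, printed 5′ to 3′ on the gene's strand. Capitals mark matches, on either strand, to the motifs of cell cycle promoters. These are TTTGAA, the letters of the CHR bound by the DREAM and MuvB complexes, CCAAT, the NF-Y box, and the E2F letters TTTCCCGC, TTTCGCGC, TTTGCCGC or TTTGGCGC.
CENPA, chr2:26785806-26786105, plus strand: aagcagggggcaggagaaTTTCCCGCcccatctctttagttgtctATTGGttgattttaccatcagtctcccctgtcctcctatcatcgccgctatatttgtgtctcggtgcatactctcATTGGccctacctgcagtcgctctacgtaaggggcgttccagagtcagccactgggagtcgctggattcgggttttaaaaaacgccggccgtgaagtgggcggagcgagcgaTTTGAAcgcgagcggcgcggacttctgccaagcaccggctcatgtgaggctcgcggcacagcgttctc
PLK1, chr16:23678639-23678938, plus strand: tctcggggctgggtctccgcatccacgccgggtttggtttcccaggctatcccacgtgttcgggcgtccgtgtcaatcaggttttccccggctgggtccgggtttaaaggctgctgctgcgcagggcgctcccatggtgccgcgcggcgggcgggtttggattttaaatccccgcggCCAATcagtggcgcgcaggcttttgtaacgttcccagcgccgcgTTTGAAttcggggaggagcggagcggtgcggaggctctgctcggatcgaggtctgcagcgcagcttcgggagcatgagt
CDC6, chr17:40287629-40287928, plus strand: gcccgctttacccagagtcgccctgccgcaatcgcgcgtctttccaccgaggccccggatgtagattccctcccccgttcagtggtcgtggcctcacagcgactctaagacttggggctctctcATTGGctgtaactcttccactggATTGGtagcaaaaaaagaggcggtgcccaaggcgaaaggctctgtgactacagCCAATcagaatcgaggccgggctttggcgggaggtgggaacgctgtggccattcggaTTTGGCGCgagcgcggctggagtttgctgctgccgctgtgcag
MCM2, chr3:127598161-127598460, plus strand: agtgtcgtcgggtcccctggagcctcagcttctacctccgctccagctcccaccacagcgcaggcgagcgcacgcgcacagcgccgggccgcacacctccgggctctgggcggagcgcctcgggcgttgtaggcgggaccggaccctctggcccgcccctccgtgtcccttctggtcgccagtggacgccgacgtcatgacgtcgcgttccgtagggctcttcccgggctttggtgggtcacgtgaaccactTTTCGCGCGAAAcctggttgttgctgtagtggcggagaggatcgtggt
CENPA has the CHR letters 18 bases before the start, CCAAT letters on the other strand (ATTGG) 205 and 130 bases before it, and E2F letters 232 bases before it. PLK1 has the CHR letters 29 and CCAAT 73 bases before the start. CDC6 has CCAAT letters at 126, 103 and 50 bases before the start and E2F letters 8 bases after it. In MCM2 E2F letters begin 3 and 7 bases after the start on opposite strands and overlap.

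Of the 44 genes, 33 had a window in the RefSeq table, and 9 of these had several starts, of which the one listed first was used. The CHR letters occurred in 7 of 14 windows of mitotic genes (50%) and in 0 of 8 of the licensing and fork genes, against 15.4% of the windows of all 27305 genes. The E2F letters occurred in 2 of 14 (14.3%) and 7 of 8 (87.5%), against 3.33% of all genes. CCAAT letters occurred in 11 of 14 (78.6%) and 5 of 8 (62.5%), against 35.7% of all genes. A match of letters is a description and no shown binding site.

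Against Parent, the genes of G2 and mitosis had mostly positive differences in NME1-wild-type, NME1-E5A and NME1-K12Q. In NME1-P96S they were mostly negative, as were all features (38.3% positive), and mostly positive without NME1-P96S replicate 3. Licensing genes were mostly positive in NME1-P96S and NME1-wild-type, and genes of G1/S entry in each NME1 line except NME1-E5A. In NME1-wild-type 38 of 44 values were positive, at a median of 0.13, while 41.1% of all features were positive at a median of -0.03. In NME1-E5A 28 were positive at a median of 0.07, beside 39.2% and -0.04 for all features. In NME1-K12Q 35 were positive at a median of 0.07, beside 36.3% and -0.05. In NME1-P96S 27 were positive at a median of 0.06, beside 38.3% and -0.06. These 4 comparisons share the same 4 Parent arrays. Without Parent replicate 2, the lowest of all 20 arrays for 17 of the 44 genes, 29 were positive in NME1-wild-type at a median of 0.0595, 21 in NME1-E5A at -0.00309, 25 in NME1-K12Q at 0.04 and 23 in NME1-P96S at 0.03. Without NME1-P96S replicate 1 the NME1-P96S median was -0.02, and without NME1-P96S replicate 3 it was 0.18. Without NME1-K12Q replicate 2 the NME1-K12Q median was 0.16.

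The 10 spindle, checkpoint and anaphase genes were positive in 10 of 10 cases in NME1-wild-type (median 0.22), NME1-E5A (0.16) and NME1-K12Q (0.14), and in 4 of 10 in NME1-P96S (-0.04). The 9 G2/M cyclins, kinases and FOXM1 were positive in 8, 6 and 9 cases in those 3 lines, with medians of 0.21, 0.17 and 0.14, and in 2 of 9 in NME1-P96S (-0.04). Of the 10 licensing and fork genes, 7 were positive in NME1-wild-type (0.04), 3 in NME1-E5A (-0.04), 4 in NME1-K12Q (-0.01) and 10 in NME1-P96S (0.13). The 5 genes of G1/S entry were all positive in NME1-wild-type (0.05), NME1-K12Q (0.11) and NME1-P96S (0.19), and 2 of 5 were in NME1-E5A (-0.05). No member of any of these groups passed the test, and the medians depend on single arrays. Without Parent replicate 2 the spindle group was positive in 7 of 10 in NME1-wild-type (0.02), 6 in NME1-E5A (0.06), 6 in NME1-K12Q (0.02) and 1 in NME1-P96S (-0.18). The G2/M group was then positive in 7 of 9 in NME1-wild-type (0.12), 5 in NME1-E5A (0.07), 6 in NME1-K12Q (0.15) and 3 in NME1-P96S (-0.09). The licensing median was then -0.04 in NME1-wild-type and 0.09 in NME1-P96S, with 8 of 10 positive. Without NME1-P96S replicate 3 the G2/M group was positive in 6 of 9 (0.12) and the spindle group in 6 of 10 (0.17) in NME1-P96S, and the licensing group in 9 of 10 (0.20). The NME1-wild-type licensing median was also below 0 with quantile normalisation (-0.00472). In bulk RNA, a smaller share of dividing cells and less of a transcript per dividing cell cannot be told apart.

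**Figure D1:**
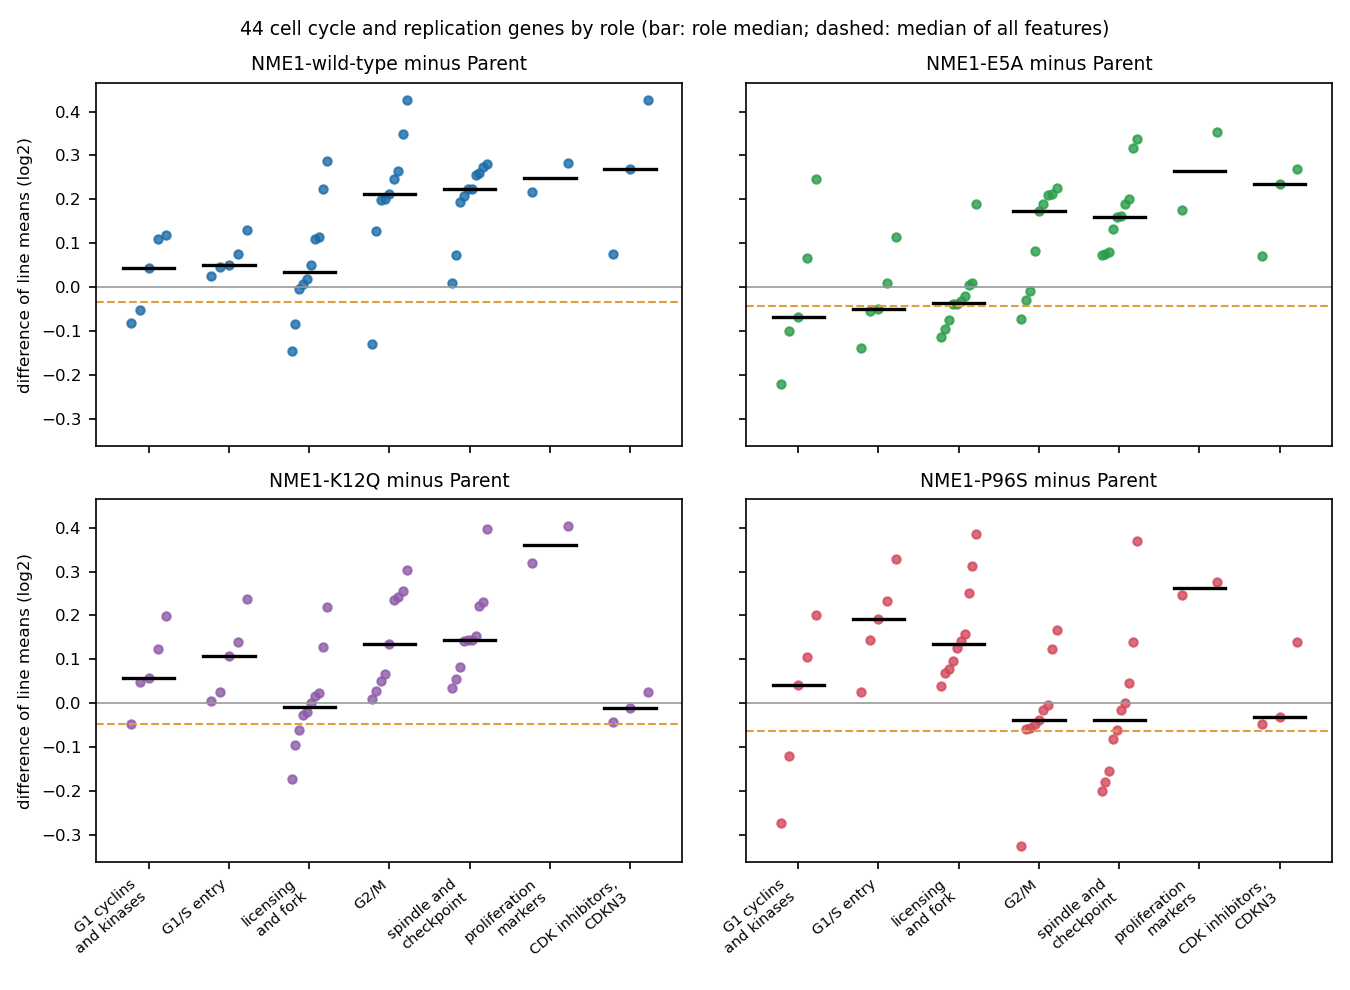
Difference of line means from Parent (log2, vertical axis) for each of the 44 genes, grouped by role along the horizontal axis, with 1 panel for each NME1 line. Points are genes, black bars role medians and the dashed line the median of all features. The spindle group lies wholly above 0 in each line except NME1-P96S, and the licensing group wholly above 0 in NME1-P96S.

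Among the D-type cyclins and their kinases, CCND1, which encodes cyclin D1 and couples growth signals to the cycle, measured 11.24, 11.59, 11.40 and 11.56 in NME1-wild-type, 11.30, 11.47, 11.32 and 11.53 in NME1-E5A, 11.42, 11.58, 11.54 and 11.61 in NME1-K12Q and 11.36, 11.40, 11.46 and 11.56 in NME1-P96S, against 11.39, 11.40, 11.30 and 11.27 in Parent. All 4 NME1-K12Q arrays lay above the Parent arrays, by 0.20 in the mean, and the other NME1 lines overlapped with Parent. With PLK1 and FOXM1, CCND1 was 1 of 3 genes whose arrays did not overlap between NME1-K12Q and Parent. All 3 were higher in NME1-K12Q (6.82%, beside 1.17% of all features). With quantile normalisation the count was 0 and with centred arrays 4, without a computed share of all features. CCND2, which encodes cyclin D2, measured 4.94, 4.81, 4.94 and 4.76 in NME1-wild-type, 4.59, 4.89, 4.52 and 4.90 in NME1-E5A, 4.70, 5.41, 4.85 and 4.62 in NME1-K12Q and 4.41, 4.33, 5.38 and 4.56 in NME1-P96S, against 4.63, 5.49, 4.92 and 4.74 in Parent. Its 3 highest values were on the 3 arrays of narrowest spread. CDK4, the catalytic partner of the D cyclins, on a row shared with TSPAN31, measured 9.88, 9.55, 9.73 and 9.72 in NME1-wild-type, 9.92, 9.47, 9.66 and 9.64 in NME1-E5A, 10.01, 9.74, 9.82 and 9.75 in NME1-K12Q and 9.998, 9.68, 9.76 and 9.81 in NME1-P96S, against 9.73, 10.04, 9.71 and 9.61 in Parent. All lines overlapped. CCND3, the third D cyclin, and CDK6, the other D-cyclin kinase, had line means between 8.05 and 8.22 and between 9.41 and 9.66.

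At G1/S entry, E2F1, the activator of replication genes, measured 7.99, 8.20, 7.98 and 7.94 in NME1-wild-type, 7.95, 8.01, 7.91 and 7.95 in NME1-E5A, 7.91, 8.23, 8.06 and 7.92 in NME1-K12Q and 7.92, 7.86, 8.29 and 8.06 in NME1-P96S, against 7.93, 8.25, 8.06 and 7.79 in Parent. Its line means were the closest together of the 44 genes. The cyclin E genes CCNE1 and CCNE2, CDK2, the kinase they activate, and CDC25A, the phosphatase that activates CDK2, had higher means in NME1-P96S than in Parent, by 0.14, 0.33, 0.23 and 0.19. Their 95% intervals all included 0. Against NME1-P96S, NME1-wild-type was lower in 5 of these 5 genes (median -0.14) and NME1-E5A in 5 of 5 (-0.21), with 0 called.

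In the replication group, CDC6, which loads the MCM helicase at origins, measured 9.65, 8.86, 9.57 and 9.50 in NME1-wild-type, 9.38, 9.43, 9.45 and 9.16 in NME1-E5A, 9.61, 9.45, 9.78 and 9.58 in NME1-K12Q and 9.99, 9.97, 9.45 and 9.67 in NME1-P96S, against 9.65, 9.12, 9.29 and 9.48 in Parent. NME1-P96S had the highest mean, 9.77 ± 0.258 (SD, n = 4), and overlapped with Parent, where it was 9.39 ± 0.232. The difference NME1-P96S minus Parent was 0.39 (95% interval 0.034 to 0.737, limma adjusted p = 0.85). Against NME1-P96S, NME1-E5A differed by -0.42 with arrays that did not overlap, although the nearest arrays both round to 9.45 (limma adjusted p = 0.889, exact permutation p = 0.0286, the smallest that 4 against 4 arrays can give). NME1-wild-type differed by -0.38 (limma adjusted p = 0.999), and by -0.20 without its replicate 2.

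MCM2, a subunit of the replicative helicase, measured 7.50, 7.50, 7.55 and 7.71 in NME1-wild-type, 7.68, 7.58, 7.62 and 7.58 in NME1-E5A, 7.63, 7.56, 7.56 and 7.72 in NME1-K12Q and 7.78, 7.74, 7.85 and 7.87 in NME1-P96S, against 7.56, 7.75, 7.72 and 7.81 in Parent. All 4 NME1-P96S arrays lay above every array of the other NME1 lines and overlapped with Parent. NME1-wild-type minus NME1-P96S was -0.24 (95% interval -0.441 to -0.0455, limma adjusted p = 0.999, exact permutation p = 0.0286). Arrays without overlap always give this permutation p, here and below, so it only restates the lack of overlap. The other helicase subunits MCM3, MCM4, MCM5, MCM6 and MCM7 also had their highest line mean in NME1-P96S, at 8.70, 9.39, 9.31, 8.99 and 9.30, against 8.45, 9.25, 9.25, 8.68 and 9.18 in Parent, and 0 of them passed. The arrays of MCM5 did not overlap between NME1-E5A and NME1-P96S, and those of MCM4 did not overlap between NME1-wild-type, the higher line, and NME1-E5A.

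CDT1, which works with CDC6 in helicase loading, measured 7.52, 7.72, 7.52 and 7.55 in NME1-wild-type, 7.42, 7.44, 7.39 and 7.57 in NME1-E5A, 7.40, 7.77, 7.50 and 7.50 in NME1-K12Q and 7.53, 7.42, 7.78 and 7.52 in NME1-P96S, against 7.61, 7.63, 7.63 and 7.25 in Parent. All lines overlapped. PCNA, the sliding clamp of the DNA polymerases, measured 9.75, 9.62, 9.04 and 8.79 in NME1-wild-type, 9.44, 8.69, 9.16 and 8.68 in NME1-E5A, 9.50, 8.94, 9.24 and 8.88 in NME1-K12Q and 9.70, 9.07, 9.09 and 8.82 in NME1-P96S, against 9.40, 9.37, 8.74 and 8.55 in Parent. Within every line the array numbered 1 was the highest and the array numbered 4 the lowest. GMNN, the inhibitor of CDT1, averaged 7.32 in NME1-wild-type, 7.05 in NME1-E5A, 6.92 in NME1-K12Q and 7.17 in NME1-P96S, against 7.09 in Parent.

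In the G2/M group, PLK1, a kinase of mitotic entry and spindle formation, measured 9.64, 9.72, 9.92 and 9.96 in NME1-wild-type, 9.54, 9.77, 9.78 and 9.85 in NME1-E5A, 9.77, 9.99, 9.72 and 9.99 in NME1-K12Q and 9.45, 9.56, 9.49 and 9.60 in NME1-P96S, against 9.56, 9.39, 9.69 and 9.62 in Parent. The NME1-K12Q arrays lay above those of NME1-P96S and of Parent, and the NME1-wild-type arrays above those of NME1-P96S. NME1-K12Q minus NME1-P96S was 0.34 (95% interval 0.104 to 0.576, limma adjusted p = 0.585, exact permutation p = 0.0286). NME1-wild-type minus NME1-P96S was 0.28 and NME1-K12Q minus Parent was 0.30, which became 0.147 with array weights. The moderated F-test gave an unadjusted p of 0.0251 in limma (adjusted p = 1).

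FOXM1, the transcription factor of the G2/M programme, measured 8.998, 9.07, 9.28 and 9.20 in NME1-wild-type, 8.72, 9.03, 9.02 and 8.94 in NME1-E5A, 9.10, 9.15, 9.32 and 9.22 in NME1-K12Q and 9.08, 9.28, 8.91 and 8.98 in NME1-P96S, against 9.06, 8.67, 9.04 and 8.99 in Parent. The NME1-K12Q arrays lay above those of NME1-E5A and of Parent. NME1-E5A minus NME1-K12Q was -0.27 (limma adjusted p = 1, exact permutation p = 0.0286), and NME1-K12Q minus Parent was 0.26, or 0.166 without Parent replicate 2. CDC25C, the phosphatase that activates CDK1 at mitotic entry, measured 6.28, 6.19, 6.06 and 5.93 in NME1-wild-type, 6.12, 6.22, 6.28 and 6.08 in NME1-E5A, 6.45, 5.997, 6.26 and 6.31 in NME1-K12Q and 5.86, 6.14, 5.92 and 5.76 in NME1-P96S, against 5.97, 6.13, 6.38 and 6.51 in Parent. NME1-P96S had the lowest mean and overlapped with Parent, at a difference of -0.32 (95% interval -0.606 to -0.0438, limma adjusted p = 0.85).

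CCNB1, the cyclin B1 gene, measured 10.46, 9.92, 10.09 and 9.96 in NME1-wild-type, 10.45, 10.02, 10.26 and 9.74 in NME1-E5A, 10.18, 9.70, 10.02 and 9.95 in NME1-K12Q and 10.23, 10.03, 9.35 and 9.77 in NME1-P96S, against 9.92, 9.21, 10.05 and 10.40 in Parent. CDK1, the kinase that cyclin B1 activates, measured 8.67, 8.27, 8.06 and 8.15 in NME1-wild-type, 8.41, 7.65, 8.31 and 7.91 in NME1-E5A, 8.43, 7.59, 8.15 and 8.24 in NME1-K12Q and 8.77, 8.06, 7.40 and 7.87 in NME1-P96S, against 8.28, 7.69, 7.58 and 7.88 in Parent. Both genes overlapped in all lines, and their lowest array was of narrow spread, Parent replicate 2 for CCNB1 and NME1-P96S replicate 3 for CDK1. CDK1 differed by 0.43 between NME1-wild-type and Parent, with an interval of -0.099 to 0.953. CCNA2 (cyclin A2), CCNB2 and the Aurora kinase genes AURKA and AURKB had means in NME1-wild-type of 9.24, 8.52, 9.10 and 9.01, against 8.98, 8.17, 8.90 and 8.88 in Parent.

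**Figure D2:**
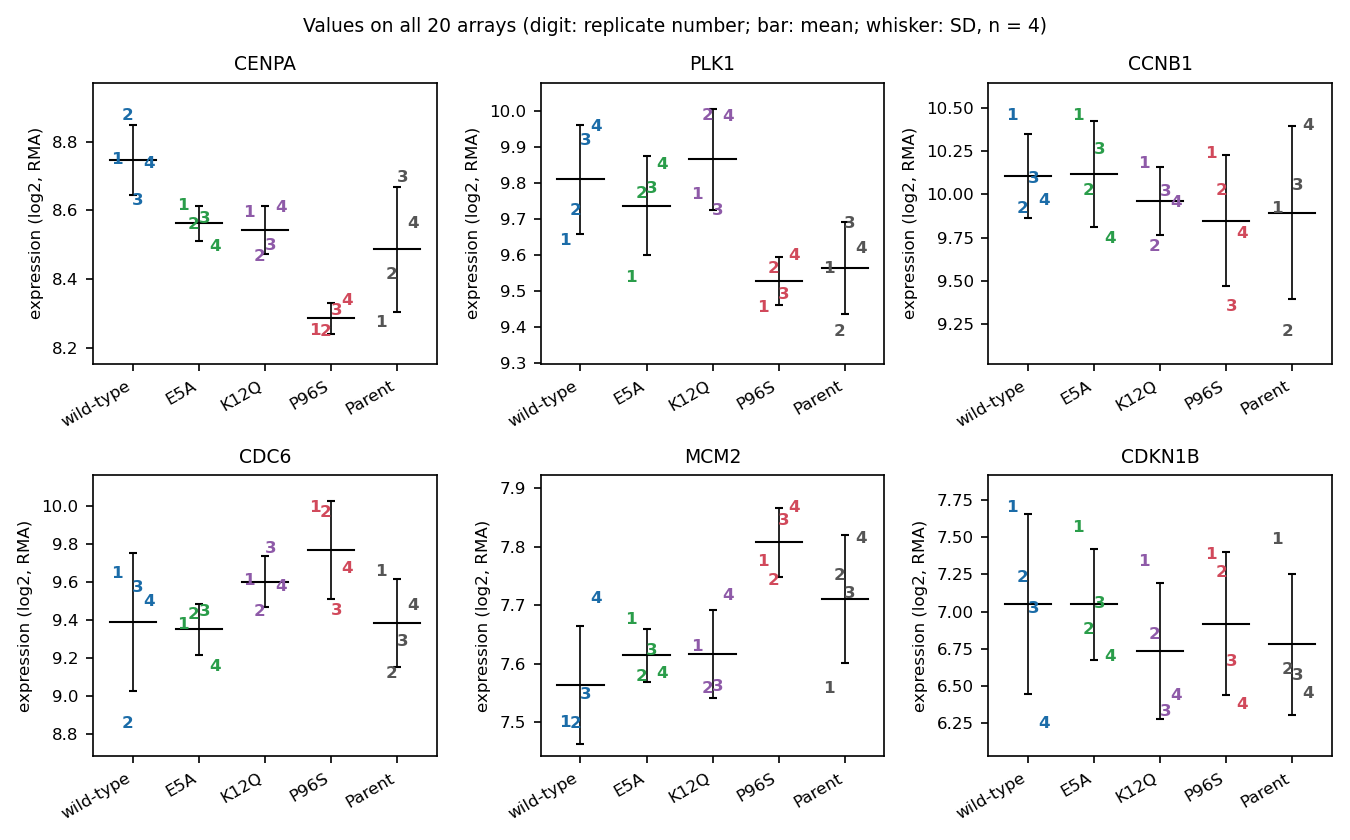
Level on each of the 20 arrays (log2, RMA, vertical axis) of CENPA, PLK1, CCNB1, CDC6, MCM2 and CDKN1B by line (horizontal axis). Digits are replicate numbers, bars means and whiskers SD (n = 4). CENPA in NME1-P96S lies at 8.25 to 8.34, below all arrays of the other NME1 lines, and MCM2 in NME1-P96S at 7.74 to 7.87, above them.

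Of the spindle and checkpoint genes, CENPA, the histone H3 variant that marks centromeres, had the smallest F-test p of the 44. It measured 8.75, 8.88, 8.63 and 8.74 in NME1-wild-type, 8.62, 8.56, 8.58 and 8.50 in NME1-E5A, 8.59, 8.47, 8.50 and 8.61 in NME1-K12Q and 8.25, 8.25, 8.31 and 8.34 in NME1-P96S, against 8.27, 8.41, 8.70 and 8.56 in Parent. The NME1-wild-type arrays lay above those of each mutant, and the NME1-P96S arrays below those of every other NME1 line. Parent overlapped with all 4. The means were 8.75 ± 0.102 in NME1-wild-type, 8.56 ± 0.0503 in NME1-E5A, 8.54 ± 0.0705 in NME1-K12Q and 8.29 ± 0.045 in NME1-P96S, against 8.49 ± 0.183 in Parent (SD, n = 4 each). NME1-wild-type minus NME1-P96S was 0.46, or 1.38-fold (SE 0.102, 95% interval 0.247 to 0.675, limma adjusted p = 0.0752, exact permutation p = 0.0286). It was not called, and over the alternatives its adjusted p ran between 0.00673 and 0.999 at differences of 0.262 to 0.501, all under 1.5-fold. In the F-test its limma p was 0.0049 before adjustment over all features and 0.381 after it. The gene's other row, 2473965, shared with SLC35F6, had a difference of 0.06 between NME1-wild-type and NME1-P96S (limma, unadjusted p = 0.597), so the rows of CENPA disagree.

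BIRC5, which encodes survivin of the chromosomal passenger complex, measured 9.03, 8.54, 8.78 and 8.92 in NME1-wild-type, 8.96, 8.76, 8.82 and 8.98 in NME1-E5A, 9.03, 8.88, 9.01 and 8.87 in NME1-K12Q and 8.81, 8.51, 8.57 and 8.72 in NME1-P96S, against 8.79, 8.93, 8.71 and 8.79 in Parent. The NME1-K12Q arrays lay above those of NME1-P96S, by 0.30 in the mean (limma adjusted p = 1), or 0.14 with the mean of the gene's rows. UBE2C, the ubiquitin-conjugating enzyme of the anaphase-promoting complex, measured 9.17, 9.43, 8.77 and 8.93 in NME1-wild-type, 9.20, 8.77, 8.88 and 9.06 in NME1-E5A, 9.11, 8.82, 8.91 and 9.01 in NME1-K12Q and 8.92, 8.59, 8.66 and 8.78 in NME1-P96S, against 8.89, 9.01, 8.72 and 8.65 in Parent. All lines overlapped, and NME1-wild-type minus NME1-P96S was 0.34 (limma adjusted p = 0.999), or 0.217 without NME1-wild-type replicate 2 and 0.176 with array weights. BUB1, a checkpoint kinase of the kinetochore, measured 8.62, 8.41, 8.68 and 8.76 in NME1-wild-type, 8.63, 8.78, 8.80 and 8.61 in NME1-E5A, 8.57, 8.24, 8.76 and 8.88 in NME1-K12Q and 8.59, 8.73, 7.96 and 8.46 in NME1-P96S, against 8.37, 7.75, 8.47 and 8.97 in Parent. Its lowest values were on NME1-P96S replicate 3 and Parent replicate 2, and all lines overlapped.

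The checkpoint genes BUB1B and TTK, the kinetochore motor gene CENPE, the spindle motor genes KIF11 and KIF20A and CDC20, the activator of the anaphase-promoting complex, were called in 0 comparisons. Their differences between NME1-wild-type and Parent lay between 0.07 for CDC20 and 0.28 for KIF11. Between NME1-wild-type and NME1-P96S they lay between -0.09 for KIF11 and 0.27 for TTK. KIF11 had the largest bounds against Parent in the mutants, reaching 0.931 in NME1-E5A, 0.991 in NME1-K12Q and 0.963 in NME1-P96S.

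The proliferation marker MKI67, whose product coats mitotic chromosomes and is used to count cycling cells, measured 8.54, 8.72, 9.12 and 8.99 in NME1-wild-type, 8.67, 9.01, 8.94 and 8.59 in NME1-E5A, 8.76, 8.91, 9.07 and 9.03 in NME1-K12Q and 8.99, 9.29, 8.49 and 8.73 in NME1-P96S, against 9.16, 8.18, 8.52 and 8.65 in Parent. Parent held the lowest value, in replicate 2, and the value next to the highest, in replicate 1. MKI67 averaged 8.84 in NME1-wild-type, 8.80 in NME1-E5A, 8.95 in NME1-K12Q and 8.87 in NME1-P96S, against 8.63 in Parent. TOP2A, the topoisomerase that untangles replicated chromosomes, averaged 9.52, 9.59, 9.64 and 9.52 in the same NME1 lines, against 9.24 in Parent. For NME1-wild-type against NME1-P96S the differences were -0.03 in MKI67 (95% interval -0.437 to 0.375) and 0.01 in TOP2A (-0.407 to 0.418).

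CDKN2A, the gene of the CDK4 and CDK6 inhibitor p16, measured 8.09, 8.14, 7.66 and 7.86 in NME1-wild-type, 8.19, 7.76, 7.84 and 7.94 in NME1-E5A, 8.02, 7.83, 7.73 and 7.81 in NME1-K12Q and 7.94, 7.56, 7.97 and 7.84 in NME1-P96S, against 7.69, 8.30, 7.84 and 7.61 in Parent. CDKN1B, which encodes the CDK2 inhibitor p27, measured 7.70, 7.23, 7.02 and 6.25 in NME1-wild-type, 7.57, 6.88, 7.05 and 6.70 in NME1-E5A, 7.34, 6.84, 6.33 and 6.44 in NME1-K12Q and 7.38, 7.26, 6.67 and 6.37 in NME1-P96S, against 7.49, 6.61, 6.57 and 6.45 in Parent. Both overlapped in all lines, and in CDKN1B the array numbered 1 was the highest of every line. The array numbered 1 was likewise the highest in all 5 lines for CCNE1, PCNA, CCNB2, CDK1, AURKA and BUB1B, so for 7 of 44 genes, beside 3.27% of all features. CDKN3, a phosphatase that acts on CDK2, averaged 8.19 ± 0.405 in NME1-wild-type and 7.72 ± 0.467 in NME1-P96S (SD, n = 4 each), a difference of 0.47 (limma adjusted p = 0.999), which was 0.305 without NME1-P96S replicate 3 and 0.0796 with array weights.

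Against NME1-P96S, the 9 G2/M genes were higher in NME1-wild-type in 9 of 9 cases (median 0.26), in NME1-E5A in 8 (0.21) and in NME1-K12Q in 9 (0.13). The 10 spindle genes were higher in 9, 9 and 10 cases, with medians of 0.24, 0.23 and 0.21. The 10 licensing genes were lower in NME1-wild-type in 7 cases (-0.14), in NME1-E5A in 10 (-0.17) and in NME1-K12Q in 10 (-0.18). Over all features the medians were 0.04, 0.03 and 0.02. None of these genes passed, and these 3 comparisons share the 4 NME1-P96S arrays. Without NME1-P96S replicate 3 the spindle medians were 0.03 (7 of 10 positive), 0.05 (5 of 10) and 0.04 (6 of 10). The G2/M medians were then 0.13 (9 of 9 positive), 0.04 (6 of 9) and 0.05 (5 of 9), and the licensing medians -0.16, -0.21 and -0.20. Arrays that did not overlap were found for 3 of 44 genes between NME1-wild-type and NME1-P96S (PLK1 and CENPA higher, MCM2 lower in NME1-wild-type; 1.83% of all features). Between NME1-E5A and NME1-P96S they were found for 4 (CENPA higher, CDC6, MCM2 and MCM5 lower in NME1-E5A; 3.01%). Between NME1-K12Q and NME1-P96S they were found for 4 (PLK1, CENPA and BIRC5 higher, MCM2 lower in NME1-K12Q; 2.22%).

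In the pairs not yet described, the count of genes without overlap was 0 for NME1-wild-type (0.827% of all features), NME1-E5A (1.99%) and NME1-P96S (1.23%) against Parent. It was 2 for NME1-wild-type against NME1-E5A (3.3%), MCM4 and CENPA, 1 for NME1-wild-type against NME1-K12Q (1.34%), CENPA, and 2 for NME1-E5A against NME1-K12Q (3.54%), CDC6 and FOXM1.

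**Figure D3:**
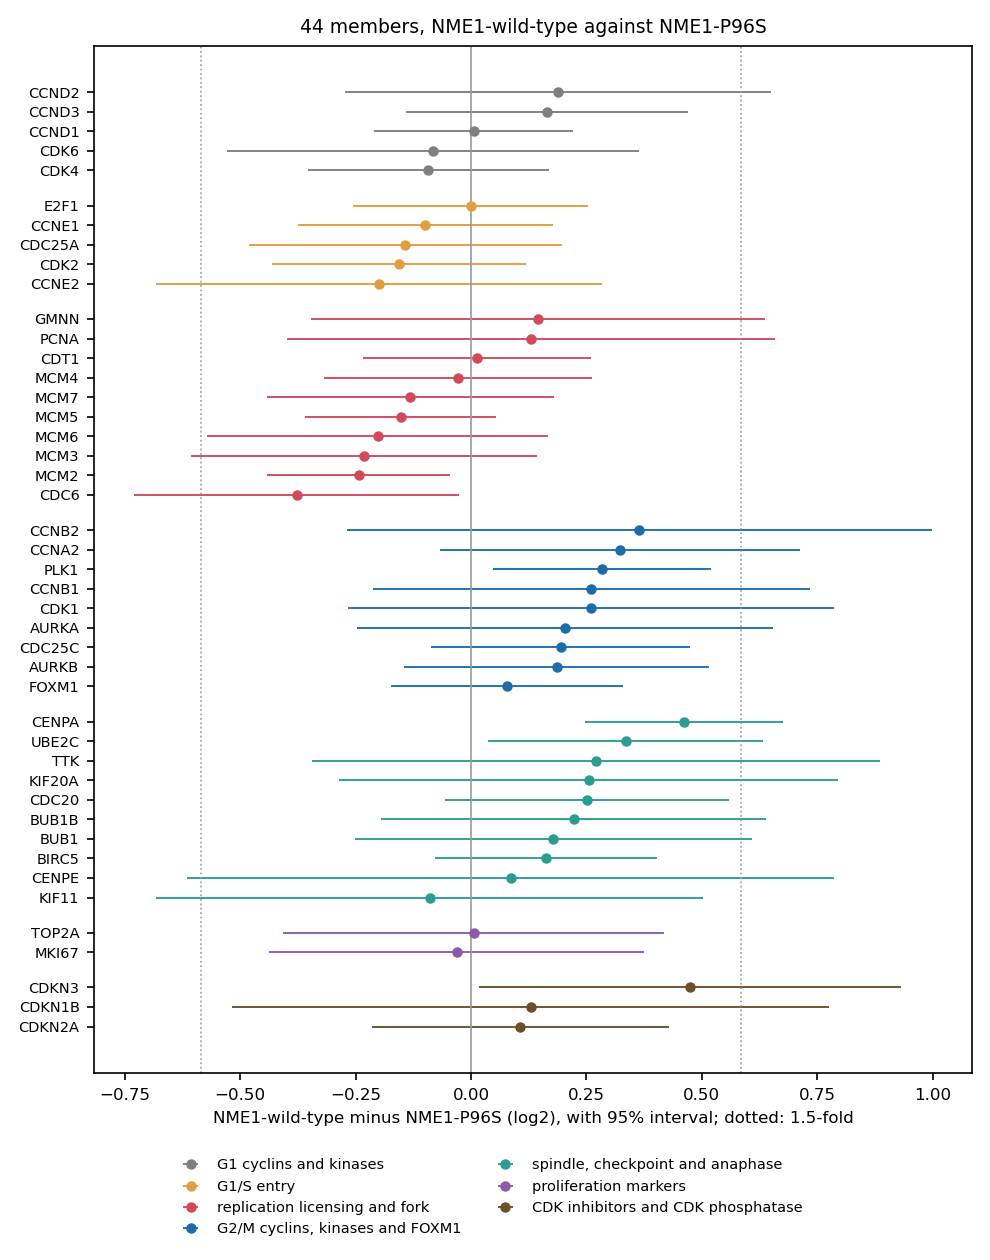
Difference NME1-wild-type minus NME1-P96S (log2, horizontal axis) with its 95% interval for each of the 44 genes, grouped and coloured by role and ordered by size within a role. Dotted lines mark 1.5-fold. All 9 G2/M genes lie above 0, as do 9 of 10 spindle genes, and 7 of 10 licensing genes lie below it, while no point reaches 1.5-fold.

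The balance between the 2 roles was read on each array as the mean of the 19 mitotic genes minus the mean of the 10 licensing genes. This measure was chosen after the values were seen and is a description without a test. Only its differences between arrays carry meaning, since rows have unlike probes. It was -0.01, -0.12, -0.09 and -0.07 in NME1-wild-type, 0.01, -0.13, -0.05 and -0.06 in NME1-E5A, 0.02, -0.19, -0.08 and -0.01 in NME1-K12Q and -0.22, -0.37, -0.64 and -0.40 in NME1-P96S, against -0.13, -0.34, -0.29 and -0.11 in Parent. All 4 NME1-P96S arrays lay below the 12 arrays of the other NME1 lines and overlapped with Parent. The NME1-P96S mean was -0.40, against -0.22 in Parent, and it was -0.33 without NME1-P96S replicate 3. Without the rows of several symbols it was -0.26 in NME1-P96S, against -0.07 in Parent.

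The median of the 44 genes on each array was 8.71, 8.54, 8.66 and 8.76 in NME1-wild-type, 8.66, 8.67, 8.68 and 8.60 in NME1-E5A, 8.76, 8.41, 8.74 and 8.78 in NME1-K12Q and 8.83, 8.66, 8.32 and 8.72 in NME1-P96S, against 8.48, 8.22, 8.56 and 8.61 in Parent. The 3 lowest medians were on the 3 arrays of narrowest interquartile range, namely NME1-K12Q replicate 2, NME1-P96S replicate 3 and Parent replicate 2. With the interquartile range as a covariate, the member median log2 difference, NME1-P96S against Parent, was 0.02, and the spindle group median was -0.20 in that pair and 0.31 in NME1-wild-type against NME1-P96S. By line means, NME1-wild-type was the highest line for 15 genes and the lowest for 1, NME1-E5A for 4 and 9, NME1-K12Q for 13 and 5 and NME1-P96S for 11 and 17, against 1 and 12 for Parent.

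**Figure D4:**
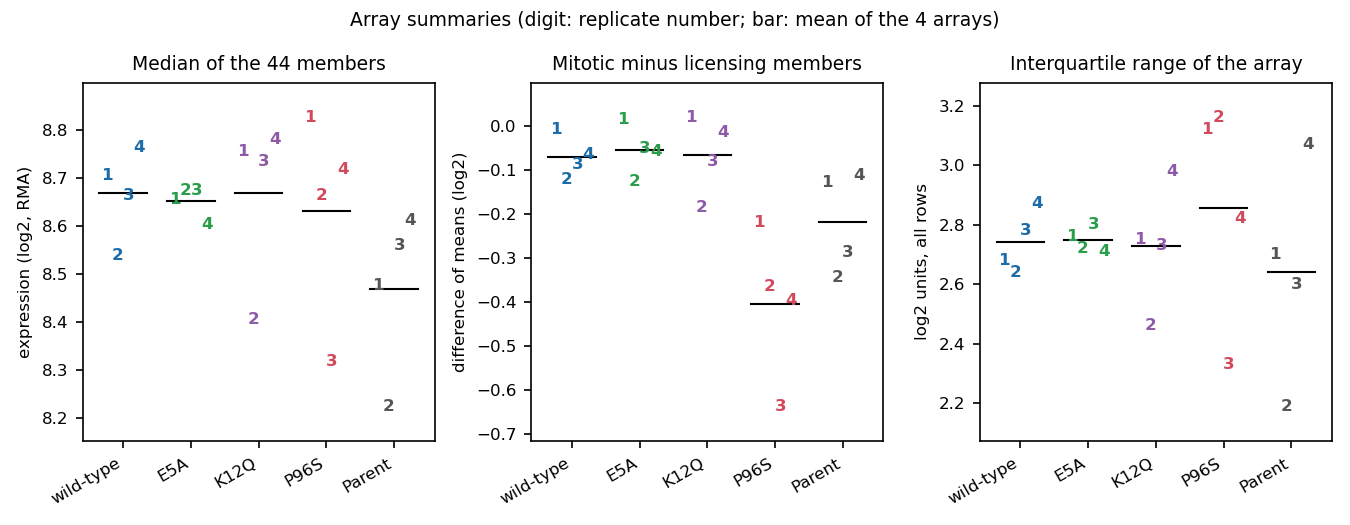
Summaries of each array by line (horizontal axis): the median of the 44 genes (log2, left), the mitotic minus licensing mean (log2, middle) and the interquartile range of all rows (log2 units, right). Digits are replicate numbers and bars means of 4 arrays. The 3 arrays with the lowest median of the 44 genes are also the 3 with the narrowest interquartile range, and the NME1-P96S arrays lie lowest among the NME1 lines in the middle panel.

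Split by promoter letters, the 11 genes with E2F letters had positive differences between NME1-P96S and Parent in 10 cases (median 0.157), and differences between NME1-wild-type and NME1-P96S that were negative in 7 (median -0.131). The 10 genes with CHR letters were positive in 4 cases between NME1-P96S and Parent (median -0.0159) and in 8 between NME1-wild-type and NME1-P96S (median 0.255). Over all features, 38.3% were positive between NME1-P96S and Parent and 61.3% between NME1-wild-type and NME1-P96S. The split was made for these 2 pairs only and was not repeated without single arrays, on which the role medians depend. CENPA and CDK1 are in both sets. Of the genes with E2F letters 7 are licensing and fork genes, and of those with CHR letters 7 are mitotic genes. These counts therefore overlap with those of the roles.

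Other genes of the same processes were taken from a list of 106, of which 102 had a row that is not one of the 44. Some of these rows also carry symbols of other genes, such as NPAT beside ATM and SCARNA23 beside POLA1. Of the 102 genes, 0 were called in any pair or by the F-test, where the lowest limma p was 0.0535 unadjusted. Against Parent, 89 of 102 were positive in NME1-wild-type (median 0.15), 74 in NME1-E5A (0.07), 65 in NME1-K12Q (0.05) and 70 in NME1-P96S (0.11). Of the 31 origin recognition and replication machinery genes, 26 were positive in NME1-wild-type (median 0.15), 22 in NME1-E5A (0.03), 21 in NME1-K12Q (0.06) and 24 in NME1-P96S (0.19) against Parent. Against NME1-P96S, 18 were lower in NME1-wild-type (-0.02), 26 in NME1-E5A (-0.14) and 26 in NME1-K12Q (-0.12). Of the 30 kinetochore, spindle and cytokinesis genes, 28 were higher in NME1-wild-type than in NME1-P96S (median 0.19), beside 61.3% of all features. Of all 102 genes, 65 were higher in that pair (0.06). Neither count was repeated without NME1-P96S replicate 3, on which the spindle median of the 44 genes depends. Against Parent, 21 of the 30 were positive in NME1-P96S (0.07). The 4 genes with the smallest F-test p were MCM10, a replication initiation factor, E2F8, a repressor of the E2F family, POLE, the catalytic subunit of the leading-strand polymerase, and E2F2, an activator of the E2F family. Each had its highest line mean in NME1-P96S, at 8.01, 7.16, 8.08 and 7.01, against 7.68, 6.79, 7.77 and 6.84 in Parent, and none passed.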

How the data were processed

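Affymetrix human exon arrays of 20 samples in 5 lines were used, with line and replicate number taken from the titles. The authors deposited a matrix of log2 levels after RMA normalisation, per the labels' design text; limma is also named in the submitters' processing notes. Software versions and the genome build are not given in the sources used here. There were 18708 rows. The platform annotation gives 14733 of them 1 symbol, 2875 several and 1100 none; 323 further rows of a gene were left out, leaving 18385 features.

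With limma 3.58.1 in R 4.3.3 (lmFit and eBayes), 1 model with 5 line means took in the 20 arrays, which left 15 residual degrees of freedom. The 10 pairs were tested two-sided, and p-values were adjusted by Benjamini-Hochberg over all features within a comparison. Exact two-sided permutation tests compared 4 with 4 arrays, without adjustment for the number of genes and pairs. Their smallest p is the value that any arrays without overlap give. The 95% intervals are limma's. The scripts were tested on simulated data. The number of arrays limits the precision, and no sequencing depth applies.

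The 44 genes, the further list and the roles were chosen with earlier results of these data known. Every member is named. Values on all arrays are given for the 8 with the smallest F-test p and for 14 set members, which overlap in MCM2 and PLK1. Promoter windows came from RefSeq (GRCh38.p14). Alternatives were quantile normalisation, centring of arrays, a filter on dim features, the replicate block, only the lines compared, array spread as a covariate, leaving out the 3 narrowest arrays or each array in turn, array weights, the mean of a gene's rows, leaving out rows of several symbols, and limma's treat. Deviations of same-numbered arrays from their line means were correlated between lines. All 4 correlations exceeded 0.1 for NME1-wild-type against NME1-K12Q (0.234 to 0.512) and against Parent (0.105 to 0.397). That came from the data and not from the labels, and no pair of lines was compared with paired arrays.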

Additional observations from a re-analysis of the deposited data

Results flagged for a closer look

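Within lines of 4 arrays, 4 values stood far from the other 3 by Dixon's criterion, out of 110 groups examined, where chance alone gives about 1 in 20. CDT1 measured 7.723 on NME1-wild-type replicate 2, with the other 3 arrays of the line between 7.519 and 7.548. CDT1 measured 7.247 on Parent replicate 4, with the others between 7.605 and 7.627. CDKN1B measured 7.486 on Parent replicate 1, with the others between 6.453 and 6.611. The median of the 44 genes was 8.406 on NME1-K12Q replicate 2, with the others between 8.735 and 8.78, and that array also had the third narrowest interquartile range of the 20.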

How the results depend on the processing

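The count of 0 of the 44 genes called held in all 10 pairs under the alternatives run, except that array weights called 1 gene in NME1-P96S against Parent, KIF11 (0.65, limma adjusted p = 0.0347), beside 8.91% of all features. Array weights were lowest for NME1-P96S replicate 3 (0.105) and Parent replicate 2 (0.183). The F-test called 1 gene with the interquartile range as a covariate (CENPA, adjusted p = 0.0349, beside 1.94% of features) and 3 with array weights (CDC25A, CDC6 and CENPA, beside 6.28%). With array weights the median of the 44 genes was -0.0548 for NME1-wild-type against NME1-P96S and -0.121 for NME1-E5A against NME1-P96S. Of the other cell cycle genes, array weights called 5 in NME1-P96S against Parent (POLA1, POLE2, RB1, E2F8 and ATM, beside 8.91% of features). These were named after their values were seen, and the rows of POLA1 and ATM also carry other symbols. In NME1-E5A against NME1-P96S array weights called 1 (E2F8, -0.67, beside 3% of features). The F-test with array weights called 4 of the other cell cycle genes (MCM10, POLA2, E2F8 and ATM, beside 6.28%). E2F8 was also the 1 called in NME1-E5A against NME1-P96S without the 3 narrowest arrays. Leaving out each array in turn gave 0 to 1 in that pair, the 1 without NME1-P96S replicate 3. The share of all features called was not computed when arrays were left out, so no background stands beside these counts. The cause of the calls was not tested. With quantile normalisation the genes without overlap numbered 0 for NME1-K12Q against Parent and 1 for NME1-wild-type against NME1-E5A. Against NME1-P96S they numbered 7 for NME1-E5A, 6 for NME1-K12Q and 2 for NME1-wild-type. With centred arrays they numbered 4 for NME1-K12Q against Parent, 1 for NME1-wild-type against NME1-E5A and 1 for NME1-E5A against NME1-K12Q. Against NME1-P96S they then numbered 2 for each of NME1-wild-type, NME1-E5A and NME1-K12Q. The share of all features without overlap was not computed under either setting, so no background stands beside these counts. Leaving out each array in turn, the median of the 44 genes ran between 0.0595 and 0.184 for NME1-wild-type, -0.00309 and 0.101 for NME1-E5A, 0.041 and 0.159 for NME1-K12Q and -0.0165 and 0.176 for NME1-P96S against Parent. For NME1-wild-type it ran between 0.0319 and 0.0864 against NME1-E5A, -0.0222 and 0.0464 against NME1-K12Q and 0.0235 and 0.148 against NME1-P96S. It ran between -0.0844 and 0.0188 for NME1-E5A against NME1-K12Q, -0.0603 and 0.082 for NME1-E5A against NME1-P96S and -0.0526 and 0.139 for NME1-K12Q against NME1-P96S. Replicate numbers were not taken to pair the arrays. Of 40 correlations between same-numbered arrays of different lines, 25 exceeded 0.1, in a range of -0.849 to 0.81. In 19 of 40 cases an array correlated best with its own number. With the replicate number as a block over all 20 arrays, 0 of the 44 genes were called in any pair. CENPA in NME1-wild-type against NME1-P96S then had a limma adjusted p of 0.0793. The adjusted p of the log2 difference of CENPA, NME1-wild-type against NME1-P96S, was below 0.05 with the covariate (0.00673), array weights (0.0189), the dim filter (0.0458) and without the 3 narrowest arrays (0.047), in each case under 1.5-fold. Over the alternatives the lowest limma adjusted p was also below 0.05 for CDC6 in NME1-P96S against Parent (0.0156) and in NME1-E5A against NME1-P96S (0.0123). The same held for CDC25C in NME1-P96S against Parent (0.0448) and for CENPA in NME1-E5A against NME1-P96S (0.031). None of these differences reached 1.5-fold. The mitotic minus licensing mean was also lowest in NME1-P96S under quantile normalisation (-0.42) and centring (-0.40).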
